A study of Mus musculus with 8 samples.

Results

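The genes described here are the kinases, other than Cdk9, that phosphorylate RNA polymerase II or act beside it, together with their cyclins. They are Cdk7, Ccnh and Mnat1 of the CDK-activating kinase, Cdk8, Cdk19 and Ccnc of the Mediator kinase module, and Cdk12, Cdk13 and Ccnk of the elongation kinases. These 9 genes were picked by symbol and not by their values, though earlier results of these data were known when they were picked. All 9 were found among the 55335 genes of the count table, and all 9 passed the filter on low counts, as did 16504 genes in all. RNA-seq was done on polyadenylated RNA of E14 cells, a line of mouse embryonic stem cells (ESCs), that had been infected with lentivirus carrying a short hairpin RNA (shRNA) from the GV248 vector. The 4 groups were a control shRNA (the negative control, NG) and knockdowns (KD) of Cdk9, of Sox2 and of hnRNPK, each with 2 biological replicates. All groups, control included, thus carried the vector and had been selected with puromycin. The sources used here give 2 shRNAs for each target and do not say which one a library received. The question was whether the mRNAs of the other transcriptional kinases were higher where Cdk9 was lower.

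Cyclin-dependent kinases (CDKs) are inactive without a cyclin partner. CDK7, with cyclin H (Ccnh) and the assembly factor MAT1 (Mnat1), is the kinase of the general transcription factor TFIIH and also phosphorylates the activation loop of other CDKs. CDK8 and its paralog CDK19 bind cyclin C (Ccnc) and attach to Mediator, the bridge between enhancer-bound factors and the polymerase. CDK12 and CDK13 bind cyclin K (Ccnk) and phosphorylate the C-terminal domain (CTD) of the polymerase during elongation, and CDK12 is known for keeping long DNA repair genes expressed. CDK9 with cyclin T forms P-TEFb, which releases the polymerase from its pause near the promoter and is held inactive by the 7SK particle.

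The sequences that define the perturbation are the 2 sites in Cdk9 to which the Cdk9 shRNAs are directed, and they are shown with the closest stretches in the kinases studied here. Both sites lie in coding sequence on the minus strand of chromosome 2 (GRCm38). The site of CDK9-shRNA1, at chr2:32709913-32709933, is in exon 5 of 7 and is carried by 7 of the 9 annotated Cdk9 transcripts. The site of CDK9-shRNA2, at chr2:32708046-32708066, is in exon 7 of 7 and is carried by 4 of the 9. In these lines capitals mark the 7 bases that pair with the seed of the guide strand.
CDK9-shRNA1 site in Cdk9: ggacatgaaggctGCGAATGt
CDK9-shRNA2 site in Cdk9: gcatgctgtctacTCACTTGa
In the next lines, which show the nearest match in each of 4 members, capitals mark the bases that differ from the site.
CDK9-shRNA1 against Mnat1: gTacatgaaTgctgGCaGtTt
CDK9-shRNA1 against Cdk8: ggaTTtgaaACctgcTaatAt
CDK9-shRNA1 against Cdk19: ggacCtgaaACcAgcAaatAt
CDK9-shRNA2 against Cdk7: gcatgcCgtcATcCATTttga
The nearest stretch in any of the 9 genes differed from the first site at 6 of 21 bases, in Mnat1, Cdk8 and Cdk19, and from the second at 7 of 21, in Cdk7, Ccnh and Cdk8. The seed match of the first shRNA, GCGAATG, occurs in the sense strand of 1 of the 9 genes (Cdk8) and in 6.18% of 21877 protein-coding genes. That of the second, TCACTTG, occurs in 4 of the 9 (Cdk8, Ccnc, Cdk12 and Cdk13) and in 24.1% of protein-coding genes. These matches describe the transcripts and do not show that a hairpin acted on them.

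Library totals lay between 16709201 and 17719366 counts. Values below are CPM, counts scaled to a common library size, after TMM normalization, which corrects for differences in library composition, and log2 fold changes (log2FC) come from the quasi-likelihood test of edgeR with Benjamini-Hochberg adjustment over all 16504 genes. Differentially expressed (DE) genes had to pass 2 thresholds, 0.05 for the adjusted p and 0.6 for the size of the log2FC. All 8 ESC markers were detected in every library, with summed levels of 5880 to 8020 CPM. Fibroblast markers summed to between 2.25 and 6.19 CPM, with up to 4 of the 7 at 0 counts. In bulk RNA, fewer cells of a type and less RNA per cell cannot be told apart.

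Cdk9 was the check on the labels. The control replicates stood at 109 and 129 CPM, those of Cdk9-KD at 73.1 and 53.2 CPM. Both knockdown libraries were below both control libraries, with a mean of 53.1% of the control mean, so the knockdown was partial at the RNA level. The log2FC was -0.91 ± 0.18 (SE, 2 libraries against 2), with an adjusted p of 0.0985 in edgeR, so Cdk9 itself was not called in that fit. DESeq2 and the likelihood ratio test of edgeR did call it, with adjusted p-values of 0.000736 and 0.00097. Adjusted p-values for Cdk9 ran from 0.000736 to 0.503 over all alternatives, the highest without control replicate 2. Leaving out Cdk9-KD replicate 1, the library with the weaker knockdown, gave -1.19 with an adjusted p of 0.0459, a fit in which the lone knockdown library is assumed to vary like the other groups. Elsewhere Cdk9 was close to control, at 125 and 132 CPM in Sox2-KD. The libraries labelled hnRNPK-KD held 110 and 124 CPM of it. Sox2 fell in Sox2-KD (412 and 530 CPM in control, 320 and 284 CPM in Sox2-KD, log2FC -0.64, adjusted p = 0.0479 in edgeR). Hnrnpk was at 1094 and 1131 CPM in control. The libraries labelled hnRNPK-KD had 697 and 1144 CPM, so their replicate 2 does not show the knockdown.

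None of the 9 genes was DE in Cdk9-KD, against 0.139% of all tested genes. None had an unadjusted p under 0.05 in edgeR, against 10.4% of all genes, and DESeq2 gave the same counts of 0 and 0. The log2FC lay between -0.21 (Cdk19) and 0.17 (Cdk8), with a median of -0.08 beside 0.02 over all tested genes, and 4 of the 9 were positive. Without Cdk9-KD replicate 1 the median of the 9 was 0.06, and without control replicate 1 or Cdk9-KD replicate 2 it was -0.15 or -0.13, alternatives that were added after seeing the data. The median absolute log2FC was 0.14, against 0.22 over all genes, which were not matched to the 9 by level. Adjusted p-values ran from 0.720 to 0.986. The 95% confidence intervals are per gene and not widened for the number of genes. They bound how large a difference in CPM these libraries leave possible, given a spread estimated over all 4 groups. The replicates of Cdk9-KD differed more than those of the other groups. CPM are relative to the other RNA counted in a library, so they do not measure mRNA per cell. The highest upper limit was 0.54, a 1.46-fold rise, for Cdk8. The lowest lower limit was -0.62, for Cdk19. That highest limit rose to 0.65 or 0.62 when control replicate 1 or 2 was dropped, and to 0.69 when Cdk9-KD replicate 1 was, so with any 1 of those libraries left out a rise past the log2FC threshold of 0.6 was no longer outside the interval.

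**Figure D1:**
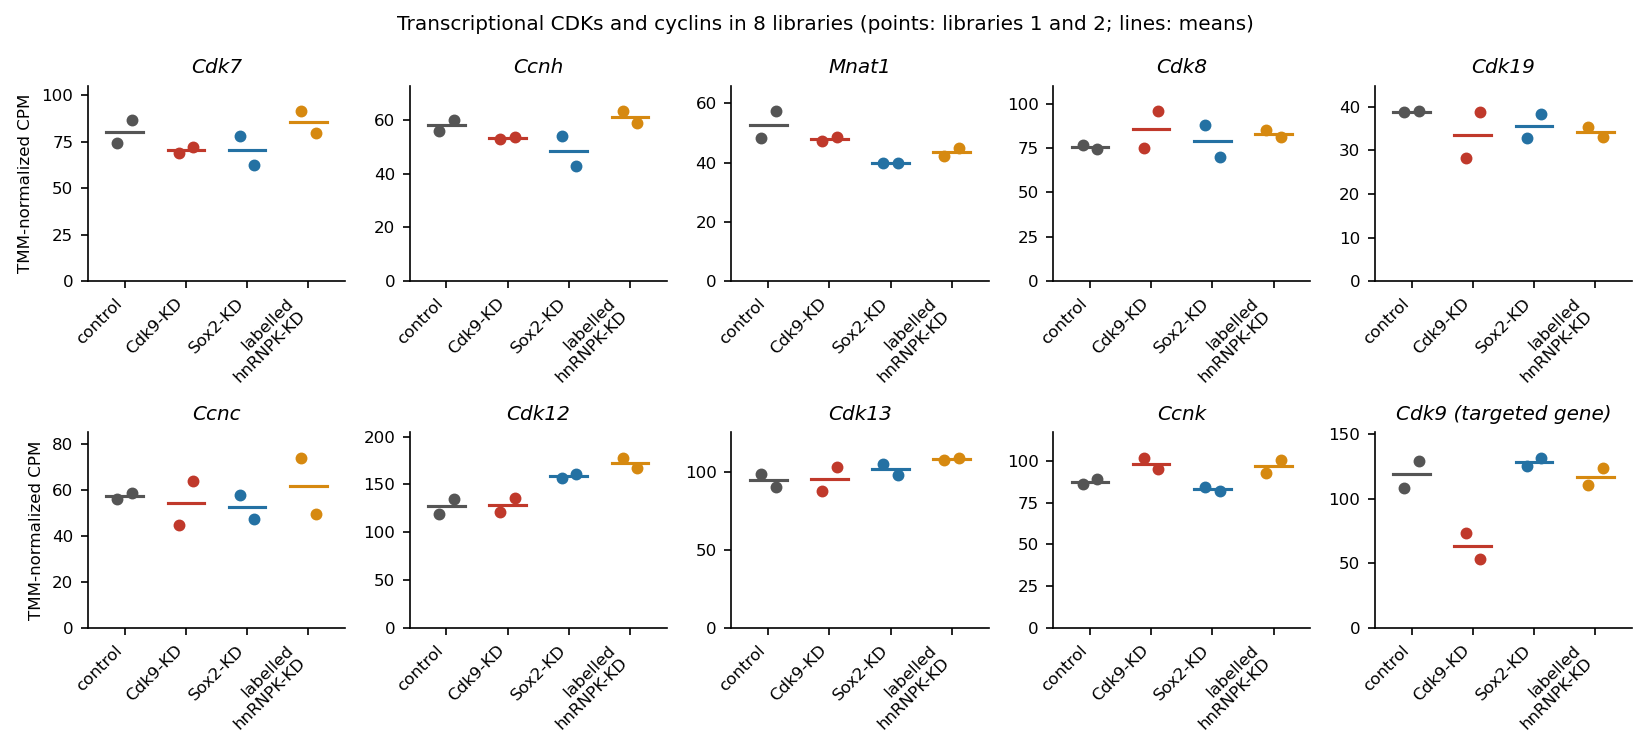
TMM-normalized CPM (y axis, from 0) of the 9 kinase and cyclin genes and of Cdk9 in the 4 groups, with 1 point per library and a line at each group mean. Only in the panel of Cdk9 do the Cdk9-KD points (73.1 and 53.2 CPM) stand far below control (109 and 129 CPM), while Cdk12 is highest in the libraries labelled hnRNPK-KD (178 and 168 CPM).

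Some markers of another cell type moved in Cdk9-KD. Of the 6 trophectoderm markers tested 2 were DE, in opposite directions. Eomes was at 3.83 and 2.58 CPM in control and at 19.5 and 14.3 CPM in Cdk9-KD (log2FC 2.39, adjusted p = 0.0191 in edgeR), and Tfap2c was at 43.4 and 43.0 CPM in control and at 13.1 and 7.81 CPM in Cdk9-KD (-2.04, adjusted p = 0.0416). The 8 markers summed to 82.7 and 80.2 CPM in Cdk9-KD and to 89.0 and 101 CPM in control. Krt8 was at 23.4 and 25.8 CPM against 18.4 and 17.4 CPM in control and was not DE (log2FC 0.46, adjusted p = 0.642 in edgeR). Krt18 (log2FC 0.18), Cdx2 (-0.09) and Gata3 (-0.35) were not DE either, and 3 of the 6 tested were positive. None of the primitive endoderm or fibroblast markers tested was DE. The part of these markers in the values of the 9 genes was not tested.

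Among the subunits of the CDK-activating kinase, Cdk7 (ENSMUSG00000069089.8, chromosome 13, 100702631 to 100730939, minus strand) was at 74.0 and 86.5 CPM in control and at 68.7 and 72.1 CPM in Cdk9-KD. Both knockdown libraries lay below both controls, by less than the difference between the controls in the case of the nearer pair. The log2FC was -0.19 with a 95% confidence interval from -0.55 to 0.17, which allows a rise of up to 12.8%. Ccnh (ENSMUSG00000021548.10, chromosome 13, 85189408 to 85223469, plus strand) was at 56.0 and 60.1 CPM in control and at 52.9 and 53.6 CPM in Cdk9-KD. Its groups did not overlap either, and the log2FC was -0.12 (-0.47 to 0.22). Mnat1 (ENSMUSG00000021103.12, chromosome 12, 73123717 to 73273988, plus strand) was at 48.3 and 57.3 CPM in control and at 47.2 and 48.7 CPM in Cdk9-KD. The groups overlapped, with a log2FC of -0.14 (-0.47 to 0.20). All 3 subunits of this complex thus had a negative log2FC, and none passed the test.

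The Mediator kinases did not share a direction. Cdk8 (ENSMUSG00000029635.15, chromosome 5, 146231230 to 146302874, plus strand) was at 77.0 and 74.7 CPM in control and at 75.4 and 95.7 CPM in Cdk9-KD. Only replicate 2 of the knockdown was above control, and the log2FC was 0.17 (-0.20 to 0.54). Without that library it was -0.01. Its paralog Cdk19 (ENSMUSG00000038481.13, chromosome 10, 40339564 to 40483818, plus strand) was at 38.9 CPM in both control libraries and at 28.2 and 38.9 CPM in Cdk9-KD. Here replicate 1 alone was low, and replicate 2 equalled control to 3 digits. The log2FC was -0.21 (-0.62 to 0.20). With Cdk9-KD replicate 1 as the only knockdown library it was -0.46, and the adjusted p of 0.405 in edgeR, the smallest of a member in this comparison over all alternatives, again takes its spread from the other groups. Ccnc (ENSMUSG00000028252.20, chromosome 4, 21727701 to 21759922, plus strand) was at 55.9 and 58.4 CPM in control and at 44.8 and 63.6 CPM in Cdk9-KD. The knockdown libraries lay on either side of control, with a log2FC of -0.08 (-0.57 to 0.42), the widest interval of the 9. Exons of Cdk19 share 268 bases with its antisense gene Cdk19os and those of Ccnc share 276 bases with Tstd3, both on the opposite strand, so that a part of these counts is uncertain because the strand setting of the counting is not given in the sources used here. Ccnh shares 12 bases with Rasa1 in the same way.

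Of the 9 genes, Cdk12 and Cdk13 had the smallest differences between Cdk9-KD and control. Cdk12 (ENSMUSG00000003119.14, chromosome 11, 98203059 to 98278504, plus strand) was at 119 and 135 CPM in control and at 122 and 136 CPM in Cdk9-KD. The groups overlapped almost fully, and the log2FC was 0.02 (-0.29 to 0.33), which leaves room for a rise of up to 25.3%. Cdk13 (ENSMUSG00000041297.8, chromosome 13, 17710315 to 17805097, minus strand) was at 98.6 and 90.4 CPM in control and at 87.6 and 103 CPM in Cdk9-KD. Its knockdown libraries enclosed both controls, with a log2FC of 0.01 (-0.30 to 0.33). The signs of Cdk12 and Cdk13 turned under other scalings or filters, with values within 0.01 of 0. Ccnk (ENSMUSG00000021258.10, chromosome 12, 108179579 to 108203359, plus strand) was at 86.4 and 89.2 CPM in control and at 102 and 95.2 CPM in Cdk9-KD. It was the one member with both knockdown libraries above both controls, with a log2FC of 0.17 (-0.13 to 0.46) and an adjusted p of 0.720 in edgeR.

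Counted by libraries alone, 4 of the 9 genes had groups that did not overlap in Cdk9-KD, 1 higher (Ccnk) and 3 lower (Cdk7, Ccnh and Cdk19). The count was made with no tolerance, and Cdk19 is in it by a difference that vanishes at 3 digits, without which 3 of the 9 do not overlap. Over all tested genes 39.2% did not overlap in this comparison, 21.2% higher and 18% lower. The count over the 9 genes was therefore near the background and is no result about them.

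**Figure D2:**
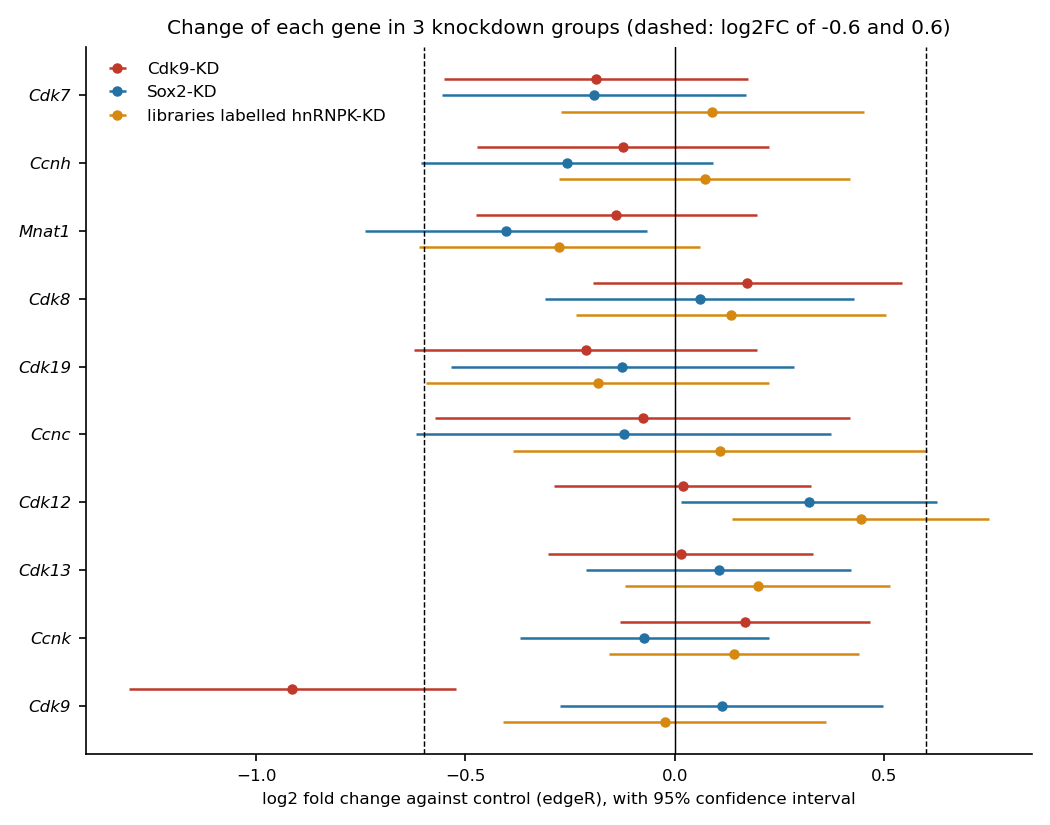
log2FC against control (x axis) of the 9 genes and Cdk9 in the 3 knockdown groups, with bars for the 95% confidence interval from edgeR and dashed lines at -0.6 and 0.6. For Cdk9-KD every interval of the 9 genes includes 0 and the highest upper limit is 0.54, whereas the interval of Cdk9 runs from -1.30 to -0.52.

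In Sox2-KD, which shares the control libraries, again none of the 9 genes was DE, against 4.32% of all tested genes. The 2 smallest p-values were those of Mnat1 and Cdk12. Mnat1 was at 39.9 CPM in both Sox2-KD libraries, below both controls (48.3 and 57.3 CPM), with a log2FC of -0.40 (-0.74 to -0.07), an unadjusted p of 0.0229 and an adjusted p of 0.174 in edgeR. Cdk12 was at 156 and 161 CPM, above both controls (119 and 135 CPM), with a log2FC of 0.32 (0.01 to 0.63), an unadjusted p of 0.0418 and an adjusted p of 0.238. An unadjusted p under 0.05 was found for 2 of the 9 genes in edgeR and for 1 in DESeq2, beside 19.3% of all genes in edgeR. The groups did not overlap for 5 of the 9 genes (1 higher, 4 lower), beside 53.3% of all genes (28.2% higher, 25.2% lower). Markers of other cell types moved with this group, though not all one way. The 8 trophectoderm markers summed to 185 and 317 CPM in Sox2-KD and to 89.0 and 101 CPM in control, and the 7 primitive endoderm markers to 43.1 and 62.5 CPM in Sox2-KD and to 3.83 and 5.10 CPM in control, with at most 1 marker of each list (Elf5, Sox7 or Foxa2) at 0 counts in a library. Of the 6 trophectoderm markers tested, Krt8, Krt18, Gata3 and Eomes were DE and higher. The other 2 had negative values, Cdx2 with a log2FC of -2.15 (19.8 and 35.1 CPM in control, 6.10 and 6.22 CPM in Sox2-KD, adjusted p = 0.0521 in edgeR) and Tfap2c with -0.50. Krt8 (18.4 and 17.4 CPM in control, 97.1 and 182 CPM in Sox2-KD) and Krt18 (3.27 and 2.86 CPM, 41.4 and 82.7 CPM) made up most of the higher sum. Of the 5 endoderm markers tested 4 were positive, with Dab2 and Gata6 DE and higher, while Gata4 had a log2FC of -0.25. Dab2 (0.68 and 0.86 CPM in control, 35.0 and 54.2 CPM in Sox2-KD) made up most of the higher endoderm sum. Of the 4 fibroblast markers tested 1 was positive, Lum, which was DE at 23 and 13 counts in Sox2-KD. Col1a2 (log2FC -3.44), Col1a1 (-0.50) and Thy1 (-0.28) were negative. The 7 fibroblast markers summed to 5.27 and 4.62 CPM in Sox2-KD and to 6.19 and 4.98 CPM in control. The part of the trophectoderm, endoderm and fibroblast markers in the values of Mnat1 and Cdk12 was not tested.

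The libraries labelled hnRNPK-KD gave no DE gene among the 9 and none among all tested genes (0%) in edgeR, and DESeq2 called none of the 9. Cdk12 had the smallest p of the 9 here. It was at 178 and 168 CPM, the highest levels of this gene in any library, with a log2FC of 0.44 (0.14 to 0.75), an unadjusted p of 0.00879 and an adjusted p of 0.487. It was the only one of the 9 with an unadjusted p under 0.05 (8.03% of all genes), in edgeR and in DESeq2. Both libraries were high, including replicate 2 in which Hnrnpk was not lower. Mnat1, at 42.4 and 44.8 CPM, was below control here too, with a log2FC of -0.28 (-0.61 to 0.06). Ccnc split widely, at 73.8 and 49.4 CPM on either side of control. The groups did not overlap for 6 of the 9 genes (4 higher, 2 lower), beside 39.1% of all genes (20.4% higher, 18.7% lower).

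Setting Cdk9-KD directly against the other knockdowns tests whether any of the 9 genes differed between them. Against Sox2-KD none was DE, beside 7.33% of all tested genes, and none had an unadjusted p under 0.05 (21.7% of all genes), while Cdk9 itself was lower in Cdk9-KD by a log2FC of -1.03 (adjusted p = 0.00734 in edgeR). The largest difference among the 9 genes was that of Cdk12, with a log2FC of -0.30 (-0.61 to 0.00), an unadjusted p of 0.0529 and an adjusted p of 0.239. Against the libraries labelled hnRNPK-KD none was DE, beside 0% of all genes, and Cdk12 had a log2FC of -0.42 (-0.73 to -0.12) with an unadjusted p of 0.0112 and an adjusted p of 0.748. It was the only one of the 9 with an unadjusted p under 0.05 there, beside 5.71% of all genes. By libraries alone, the groups did not overlap for 3 of the 9 genes against Sox2-KD (2 higher in Cdk9-KD, 1 lower), beside 49.8% of all genes (25.1% higher, 24.7% lower). Against the libraries labelled hnRNPK-KD it was 5 of 9 (1 higher, 4 lower), beside 31.7% (17.4% higher, 14.3% lower). No member thus passed the test of a difference between Cdk9-KD and another knockdown.

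Levels of different genes were compared per kilobase (kb) of the union of their exons. In control the order was Ccnk (28.9 CPM per kb), Cdk9 (25.8), Cdk7 (21.7), Ccnh (18.7), Ccnc (11.2), Cdk12 (10.8), Mnat1 (9.81), Cdk8 (7.71), Cdk13 (7.02) and Cdk19 (6.65). Between neighbours in this order, Ccnc and Cdk12 overlapped over the control libraries, and so did Cdk12 and Mnat1. Cdk19 was lowest of the 10 in each of the 8 libraries, while Cdk9 ranged from rank 1 to rank 6. The order rests on the length used. With the longest annotated transcript in place of the union of exons, Cdk7 (40.4 CPM per kb) came first, followed by Cdk9 (33.4) and Ccnk (31.5), Cdk8 moved from rank 8 to rank 6, and Cdk13 and Cdk19 stayed last.

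**Figure D3:**
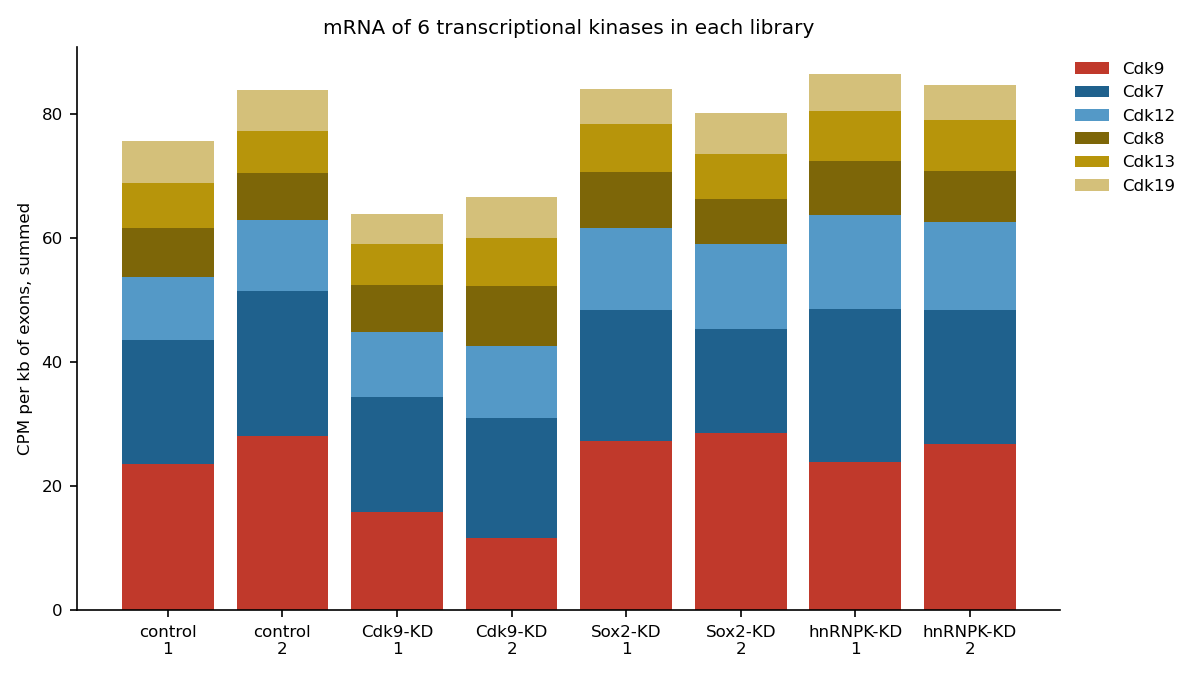
Stacked levels of the 6 kinase mRNAs (CPM per kb of exons, y axis from 0) in each library, with 1 bar per library and the Cdk9 part at the bottom. The Cdk9 part shrinks in Cdk9-KD (15.8 and 11.5 CPM per kb, against 23.6 and 28.0 in control), and the other 5 kinases sum to 47.9 and 55.1 there and to 51.9 and 55.8 in control.

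Among the mRNAs of the 6 kinases, per length, Cdk9 made up 31.2% and 33.4% in control, against 24.9% and 17.3% in Cdk9-KD. In the other groups its share was 32.4% and 35.7% (Sox2-KD) and 27.7% and 31.7% (libraries labelled hnRNPK-KD). The other 5 kinases summed to 51.9 and 55.8 CPM per kb in control and to 47.9 and 55.1 in Cdk9-KD, so neither knockdown library exceeded the higher control. In Cdk9-KD replicate 2 the level of Cdk12 reached that of Cdk9 (11.6 and 11.5 CPM per kb), while the ratio of Cdk12 to Cdk9 was 0.654 in replicate 1, and 0.431 and 0.411 in control. That ratio moved with Cdk9, since Cdk12 itself overlapped between the groups. Where the levels of Cdk12 and Cdk9 cross rests on the length used. With the longest transcript they were at 20.6 and 20.5 CPM per kb in Cdk9-KD replicate 1. In replicate 2 they were then at 22.9 and 14.9 CPM per kb. These sums and ratios are descriptions and were not tested.

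Within the complexes the ratios of subunit mRNAs varied little for cyclin H and more for the Mediator kinases. The ratio of Ccnh to Cdk7 stayed between 0.825 and 0.919 over the 8 libraries, both genes moving together. Mnat1 to Cdk7 was 0.449 and 0.456 in control and 0.473 and 0.464 in Cdk9-KD, and lower in Sox2-KD (0.352 and 0.441). Values of 0.320 and 0.387 were found under the label hnRNPK-KD. Cdk8 to Cdk19 was 1.18 and 1.14 in control and 1.59 and 1.46 in Cdk9-KD. Both Cdk9-KD libraries were above control, with Cdk19 low in replicate 1 and Cdk8 high in replicate 2. The same ratio was 1.59 and 1.09 in Sox2-KD, and 1.44 and 1.46 where the label was hnRNPK-KD, so a high value was not particular to Cdk9-KD. Ccnk to the sum of Cdk12 and Cdk13 was 1.63 and 1.61 in control and 1.99 and 1.63 in Cdk9-KD, and lower than control in the other 2 knockdown groups, from 1.29 to 1.48.

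**Figure D4:**
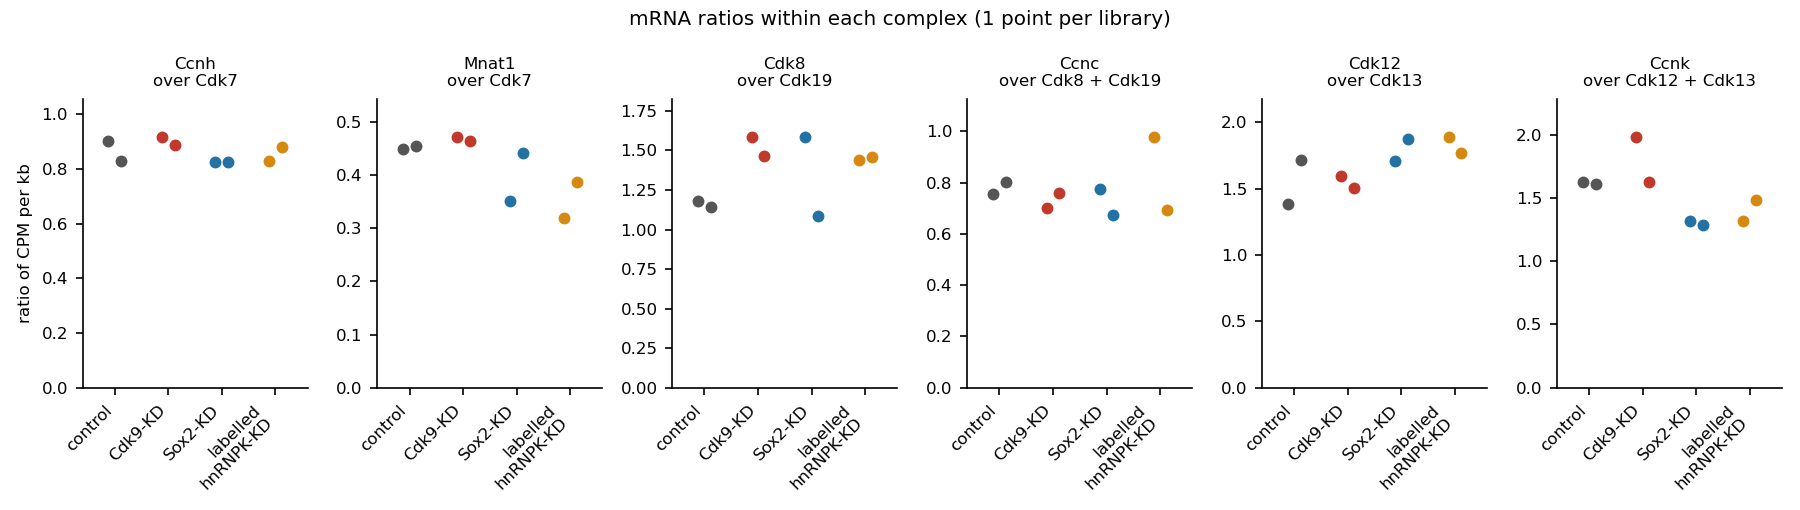
Ratios of CPM per kb between subunits of the same complex (y axes from 0) in the 4 groups, with 1 point per library. Ccnh over Cdk7 is nearly flat, from 0.825 to 0.919, while Cdk8 over Cdk19 is 1.14 to 1.18 in control and 1.46 to 1.59 in Cdk9-KD.

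Over the 8 libraries the 9 genes varied less than most tested genes, which were not matched to them by level. The SD of log2 CPM ran from 0.11 (Ccnk) to 0.24 (Ccnc), against a median of 0.30 over all tested genes and 0.47 for Cdk9. The biological coefficient of variation between replicates was 0.109 to 0.166 for the 9 genes, beside a median of 0.188 over all genes. The genes with profiles nearest to those of 3 of the kinases were sought among 9710 genes with an average log2 CPM over 3, by the root mean square difference of centred log2 CPM over the 8 libraries. Nearest to Cdk7 were Hacd2, Ptpn2 and Memo1, with differences of 0.053 to 0.055, and its own cyclin Ccnh ranked 5. Nearest to Cdk8 were Heatr3, Utp4 and Azi2 (0.048 to 0.064), and among the other 8 members and Cdk9 the closest was Cdk13 at rank 288. Nearest to Cdk12 were Zfp951, Foxh1 and Cds2 (0.086 to 0.095). Cdk13 ranked 86 for Cdk12, and their shared cyclin Ccnk ranked 2574. These distances describe 8 libraries that share 4 conditions and carry no test.

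Genes of the surrounding machinery were read from lists, of which none had a DE gene in Cdk9-KD (0.139% of all tested genes). The medians below are uncertain, since with 1 library of the comparison left out, an alternative added after seeing the data, those of 7 of the 10 lists changed sign in Cdk9-KD and those of 3 of the 10 in Sox2-KD. In P-TEFb, the cyclins T had log2FC of -0.01 (Ccnt1) and -0.03 (Ccnt2), each the mean of libraries on either side of control. Ccnt1 was at 140 and 130 CPM in control and at 105 and 164 CPM in Cdk9-KD. Ccnt2 was at 233 and 196 CPM in control and at 162 and 259 CPM in Cdk9-KD. Of the 4 genes of the 7SK particle, 3 were positive, and Larp7, which binds and stabilizes 7SK RNA, had the smallest p. It was at 132 and 138 CPM in control and at 101 and 99.2 CPM in Cdk9-KD. Both knockdown libraries were lower, with a log2FC of -0.43 ± 0.13 (SE), an unadjusted p of 0.0091 and an adjusted p of 0.313 in edgeR. Larp7 was between 127 and 141 CPM in the other knockdowns, which overlap control.

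List medians of the complexes in which CDK7 and CDK8 work were near 0 with all libraries in the fit. The 7 genes of the TFIIH core had a median log2FC of -0.09. Of them, 1 had an unadjusted p under 0.05 (10.4% of all genes). It was Ercc2, the XPD helicase (log2FC 0.46, adjusted p = 0.419 in edgeR). Ercc2 was at 21.9 and 20.3 CPM in control and at 31.8 and 26.3 CPM in Cdk9-KD, above control in both. The 4 partners of CDK8 in the Mediator kinase module had a median of -0.05. That median hid a difference between the knockdown libraries, since it was -0.40 without Cdk9-KD replicate 2 and 0.24 without replicate 1. Med12, which activates the kinase, had the smallest p among the 4 partners (log2FC 0.29, adjusted p = 0.560 in edgeR). The 26 genes of core Mediator had a median of 0.10, and 17 of them were positive. Med25 had the smallest p there (log2FC 0.35, adjusted p = 0.546 in edgeR). Among the 12 subunits of the polymerase the median was -0.08. Polr2g had the smallest p of these (log2FC -0.28, adjusted p = 0.553 in edgeR).

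The 10 DNA repair genes that are known to depend on CDK12 had a median log2FC of -0.25 in Cdk9-KD, beside 0.02 over all tested genes. The median was -0.11 without Cdk9-KD replicate 1, the library with the weaker knockdown, -0.38 when replicate 2 of that group was dropped instead, and -0.15 without control replicate 1. Of the 10, 8 were negative (47.6% of all genes), none was DE, and 1 had an unadjusted p under 0.05 (10.4% of all genes), which is near the background. That gene was Brca2, at 214 and 223 CPM in control and at 138 and 190 CPM in Cdk9-KD, with a log2FC of -0.41 and an adjusted p of 0.464 in edgeR. Both knockdown libraries were below control, while Cdk12 overlapped control. In Sox2-KD the same list had a median of -0.37 (-0.23 without control replicate 1) with 9 of 10 negative (48.2% of all genes) and 5 of 10 at an unadjusted p under 0.05 (19.3% of all genes). Of the 10, 1 was DE (4.32% of all genes). Chek1, a kinase of the replication checkpoint, was lower, at 62.3 and 50.6 CPM against 105 and 102 CPM in control (log2FC -0.87, adjusted p = 0.0305). Cdk12 was above control in those libraries. The sums of trophectoderm and endoderm markers given above moved with Sox2-KD, and their part in this value was not tested.

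Of the remaining lists, the cell cycle CDKs had a median log2FC of 0.12 in Cdk9-KD. Cdk1, the kinase of mitosis, had the smallest p among them (log2FC -0.28, adjusted p = 0.526 in edgeR). Of 7 other CDK-like genes linked to transcription or splicing, 6 were tested (Cdk14 was below the filter), with a median of 0.20 and 5 positive. Cdk10 was at 24.7 and 25.0 CPM in control and at 30.8 and 38.9 CPM in Cdk9-KD. Both knockdown libraries were higher, with a log2FC of 0.49, an unadjusted p of 0.0185 and an adjusted p of 0.373. The 6 CTD phosphatases had a median of 0.00, with Ctdsp2 at the smallest p (log2FC 0.42, adjusted p = 0.564 in edgeR). In Sox2-KD the phosphatase gene Ctdspl was higher (3.27 and 3.55 CPM in control, 7.64 and 12.8 CPM in Sox2-KD, log2FC 1.58, adjusted p = 0.0385), and the polymerase subunit gene Polr2h was lower (63.8 and 64.1 CPM in control, 44.2 and 38.6 CPM in Sox2-KD, log2FC -0.63, adjusted p = 0.0393).

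**Figure D5:**
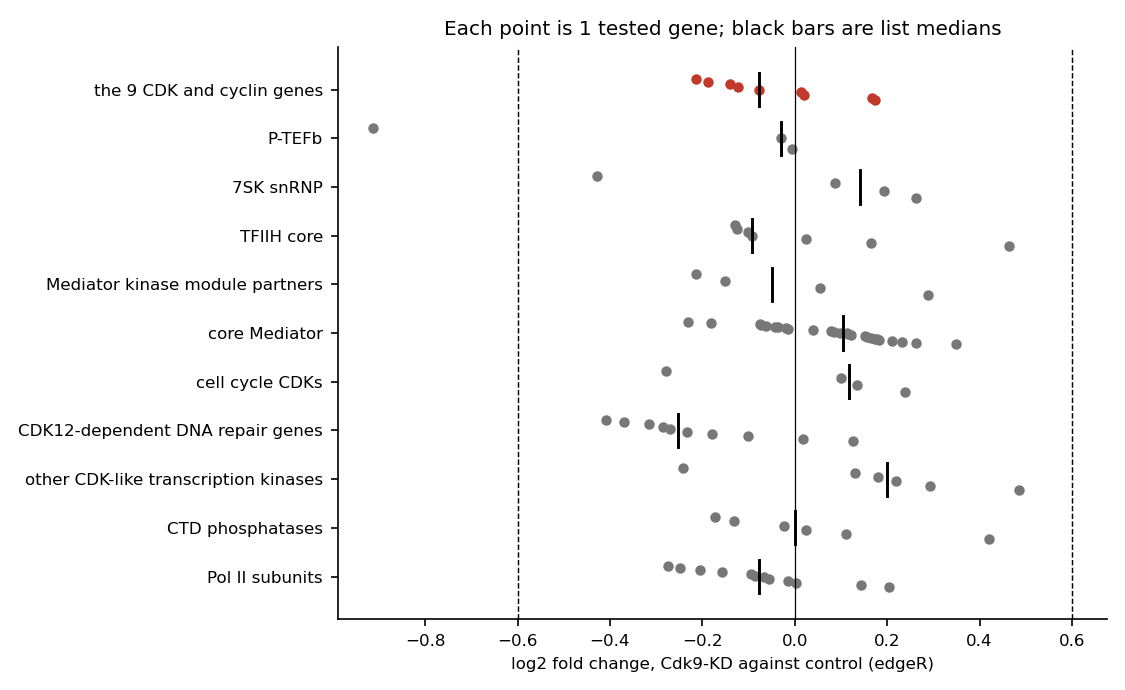
log2FC in Cdk9-KD against control (x axis) of each tested gene of 11 lists, with 1 point per gene, a black bar at each list median and dashed lines at -0.6 and 0.6. Cdk9, at -0.91, is the only point outside the dashed lines, and the list of CDK12-dependent DNA repair genes has the lowest median, -0.25.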

How the data were processed

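The deposited values are raw gene counts, one column per library, which the authors made by trimming with Trimmomatic, alignment with STAR and counting with featureCounts 2.0.1 on mm10 with GENCODE vM23. How featureCounts handled strand and multi-mapping reads is not given in the sources used here. Counts were matched to symbols with GENCODE vM21 (GRCm38), which holds 55154 of the 55335 genes. Each of the 8 columns was matched to a group and replicate by its name.

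The fit used edgeR 4.0.16 in R 4.3.3 on all 8 libraries, with filterByExpr (minimum count 10, total 15), TMM, quasi-likelihood tests and p-values adjusted by Benjamini-Hochberg. DESeq2 1.42.0 was an alternative. SEs and 95% intervals come from the F statistics. Totals of 16709201 to 17719366 counts gave between 483 and 3032 counts per member and library, with a counting error of 1.82% to 4.55%, which covers counting only. Replicates differed beyond sampling noise (chi-square of 16.4 to 28.9 per gene).

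The members and gene lists were chosen with earlier results of these data known. Named genes were all members and Cdk9, genes of the pathway lists past both thresholds (at most 3 a list), the gene of each list with the smallest p in Cdk9-KD, and the 3 nearest profiles of Cdk7, Cdk8 and Cdk12. Cell type markers, Ccnt1 and Ccnt2 fall outside this rule and were named after their values were seen. Target sequences of the shRNAs are those of the study's supplement, matched to GENCODE vM21 transcripts with Python 3.11.15. Scripts were tested on simulated counts.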

Additional observations from a re-analysis of the deposited data

How the results depend on the processing

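No member passed both thresholds in any of the 5 comparisons under any alternative, also with no limit on the log2FC, and the smallest adjusted p of a member in a knockdown was 0.127 (Cdk12 in Sox2-KD, scaled by library totals). The log2FC in Cdk9-KD turned negative for Cdk12 with size factors of DESeq2 in edgeR (-0.00032) and with at least 10 counts in every library (-0.0016), and for Cdk13 with those size factors (-0.0047), DESeq2 (-0.0037), no filter (-0.0019) and at least 10 counts (-0.0071). The cause was not tested. Leaving out 1 library moved the log2FC in Cdk9-KD between -0.0090 and 0.30 for Cdk8, -0.35 and 0.12 for Ccnc, -0.11 and 0.083 for Cdk12, and -0.11 and 0.10 for Cdk13. In Sox2-KD it ran from -0.12 to 0.21 for Cdk8 and from -0.28 to 0.012 for Ccnc. In the libraries labelled hnRNPK-KD it ran from -0.041 to 0.19 for Cdk7, -0.00058 to 0.11 for Ccnh and -0.22 to 0.34 for Ccnc. The highest upper limit of a member in Cdk9-KD was 0.56 to 0.69 with 1 library left out and 0.51 to 0.58 under the other alternatives. The share of Cdk9 among the 6 kinases in control, 32.3%, was 25.8% with the longest transcript as length, since that changes the lengths alone. The differences between the replicates of a group correlated at -0.22 to 0.21 between groups, over 0.1 in 3 of 6 pairs of groups. These values do not settle whether libraries of the same number were prepared together. With the replicate block the highest upper limit of a member in Cdk9-KD was 0.57. No member was then called, and 15 genes were DE in Cdk9-KD in place of 23.

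Over all genes, DESeq2 and the likelihood ratio test called 226 and 279 genes in Cdk9-KD (23 in the quasi-likelihood test). They called 83 and 87 genes under the label hnRNPK-KD, and 53 and 67 between Cdk9-KD and that group, where the quasi-likelihood test called 0. In Sox2-KD the likelihood ratio test called 1350 (713), and between Cdk9-KD and Sox2-KD 1869 (1210). With 1 library left out, counts ran from 0 to 32 in Cdk9-KD, 144 to 343 in Sox2-KD and 337 to 863 between Cdk9-KD and Sox2-KD, and up to 1 and 6 in the comparisons with the libraries labelled hnRNPK-KD. With 2 libraries a group, a member that was not called may still differ from control by an amount inside its interval.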

Other observations

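These values were singled out after they were seen. Hexim1, which holds P-TEFb inactive on the 7SK particle, was at 65.2 and 63.6 CPM in control, 77.3 and 70.0 CPM in Cdk9-KD, 98.6 and 82.9 CPM in Sox2-KD and 98.1 and 88.4 CPM in the libraries labelled hnRNPK-KD. All 6 knockdown libraries were above both controls. The log2FC was 0.19, 0.50 and 0.53, with adjusted p-values of 0.705, 0.0942 and 0.438 in edgeR, so none was DE.

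Among all 6 shRNAs of the study and the 9 genes, the nearest match was that of hnRNPK-shRNA2 to Cdk12, which differed at 4 of 21 bases, shown in capitals in gggttcagtTcCgCtgaCact. Cdk12 was above both controls in both libraries labelled hnRNPK-KD, and which shRNA they received is not given in the sources used here. The match describes the transcript, and its part in the level of Cdk12 was not tested.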
